A study of Mus musculus with 6 samples.

Results

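MiR-22 is a microRNA cut from a single hairpin on mouse chromosome 11, and both of its arms, miR-22-3p and miR-22-5p, were counted by small RNA sequencing in healthy mouse liver. The 2 arms were taken by name from a deposited table of 1907 distinct mature miRNAs, and each had counts in all 6 libraries. The libraries came from 3 female and 3 male C57BL/6N mice, 1 liver each, aged 12 weeks. All 6 animals are described as littermates in normal health on a chow diet, so sex is the only difference between the groups that the labels give. The study concerns acute liver injury that depends on sex and SAB, a protein of the outer mitochondrial membrane. The question here is whether the level of miR-22, or the balance of its arms, differs between female and male liver before any injury.

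A miRNA hairpin is cut into a short duplex, and one strand is loaded into an Argonaute protein, where bases 2 to 8, the seed, pair with sites in the 3' untranslated regions of messenger RNAs. The other strand, often called the passenger, is mostly degraded. MiR-22-3p is the strand known as the guide. In human cells it was found to act on the messenger RNA of estrogen receptor alpha, and in liver, fat and heart it is known for acting on regulators of lipid and energy metabolism, among them PPAR alpha and SIRT1. MiR-22-5p is less studied. The messenger RNAs of these targets were not measured here.

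The sequences of both arms are shown with the seed in capitals, because the seed sets which sites a miRNA can pair with, followed by the RefSeq hairpin with both arms in capitals.
miR-22-3p: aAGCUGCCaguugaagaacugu
miR-22-5p: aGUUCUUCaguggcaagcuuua
Mir22 hairpin: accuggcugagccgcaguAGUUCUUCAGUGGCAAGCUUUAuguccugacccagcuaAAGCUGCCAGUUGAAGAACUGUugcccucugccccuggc
The hairpin spans chr11:75463716-75463810 on the plus strand of GRCm38.p6, the assembly behind mm10. MiR-22-5p lies at chr11:75463734-75463755 and miR-22-3p at chr11:75463772-75463793, with 16 bases between them. In the GENCODE M21 annotation the whole hairpin lies within exon 2 of Mir22hg, a long non-coding host gene, so it is exonic and not intronic. The same exon is shared with a transcript of Tlcd2, a protein-coding gene that overlaps Mir22hg on the same strand. In the predicted fold of the hairpin, with a free energy of -41.9 kcal/mol, 19 of the 22 bases of miR-22-5p paired with miR-22-3p, and all 7 seed bases of each arm were paired.

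The seed sequences set both arms apart from the other miRNAs. Among 1679 mouse mature miRNAs of the RefSeq table, 0 others carried the seed of miR-22-3p and 0 others that of miR-22-5p. The miRNA closest in sequence was miR-3966 from chromosome 10, shown with the 7 letters of the miR-22-3p seed in capitals.
miR-3966: AGCUGCCagcuguagaacugu
Its first base lies opposite base 2 of miR-22-3p, and over the 21 aligned bases it differs at 2. Reads of near-identical miRNAs can be shared between them, but miR-3966 had only 4, 5 and 4 counts in the female libraries and 4, 2 and 3 in the male libraries, against at least 13916 for miR-22-3p. For miR-22-5p the closest other miRNA had 9 mismatched or unaligned bases.

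Letters complementary to the miR-22-3p seed, GGCAGCT on the sense strand of the transcript, were looked up in the longest annotated 3' untranslated region of each gene. They were present in 12.8% of 20774 genes, so a match by itself is common. Of 5 genes named as targets in the literature (Esr1, Hdac4, Ppara, Ppargc1a and Sirt1), 4 held at least 1 match and Ppargc1a held none. The regions searched in these 5 genes were 1561 to 4568 bases long. The share of 12.8% was not matched for length, so 4 of 5 cannot be read against it. The Esr1 gene, which encodes estrogen receptor alpha, had 2 matches, and Ppara, a nuclear receptor of fatty acid oxidation, had 1. These are printed with the match in capitals, as examples of the letters a miR-22-3p seed can pair with.
Esr1, chr10:5002202-5002231, plus strand: tgcccctggggcttgcagtaaaGGCAGCTt
Esr1, chr10:5003615-5003644, plus strand: cctgggaaggaaaattattcagGGCAGCTa
Ppara, chr15:85802107-85802136, plus strand: tgctcctctaggcccctcctttGGCAGCTc
The letters complementary to the miR-22-5p seed, GAAGAAC, were present in 10.1% of the 20774 genes. Of the same 5 genes, 1 held them, Ppargc1a.

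Total counts ranged from 3285249 to 5756418 in female libraries and from 4617647 to 16444674 in male libraries. A single count stood for between 0.0608 and 0.304 CPM, counts per 1000000 before adjustment. On the first principal component of log2 CPM, with 51.3% of the variance, the female libraries lay between -6.19 and -2.37 and the male libraries at 1.96, 8.49 and 3.44, with male replicate 2 farthest out. Sex differences of the miR-22 arms are therefore also given without male replicate 2.

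MiR-22-3p was among the abundant miRNAs of liver in both sexes. It had 21114, 14912 and 14070 counts in the female libraries and 26197, 13916 and 49339 in the male libraries. As a share of all counts this was 0.367%, 0.425% and 0.428% in females and 0.408%, 0.301% and 0.300% in males, and the widest 95% exact binomial interval ran from 0.421% to 0.435% (female replicate 3). Such intervals hold counting error alone, and they are too narrow even for that if PCR copies of a molecule were counted again. Among all miRNAs of a library it ranked from place 25 to 28 in females and from 26 to 31 in males. The hepatocyte miRNA miR-122-5p, the most abundant of all, had a mean level 91.9 times as high.

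MiR-22-5p, the passenger strand, was counted at a far lower but well-covered level. It had 508, 335 and 328 counts in the female libraries and 587, 290 and 1393 in the male libraries. The share of all counts was 0.00883%, 0.00955% and 0.00998% in females and 0.00913%, 0.00628% and 0.00847% in males. Its place among all miRNAs ran from 119 to 123 in females and from 119 to 137 in males. The lowest share and the lowest place were both those of male replicate 2.

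In the order of mean level over the 6 libraries, miR-22-3p was number 28 and miR-22-5p number 122 of the 370 tested miRNAs. Just above miR-22-3p stood let-7i-5p, miR-191-5p and miR-29b-3p, with means of 4313, 3785 and 3730 CPM, and just below it miR-26b-5p, miR-103-3p and miR-10a-5p, with 3620, 3399 and 3199 CPM, against 3699 CPM for miR-22-3p. All 6 of these neighbours had a range over the libraries that overlapped that of miR-22-3p, so their order is not fixed by these data. The neighbours of miR-22-5p, at 86.7 CPM, were miR-10a-3p at 91.1 CPM and miR-574-3p at 89.3 CPM above it, and miR-338-3p at 86.4 CPM and miR-92a-3p at 82.9 CPM below it, again with overlapping ranges. Levels of different miRNAs are compared as reads, and ligation in library preparation can favour some sequences over others.

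Female and male liver held similar levels of both arms, and neither arm passed the test for a sex difference. With library sizes adjusted by TMM, a scaling that holds the bulk of the miRNAs constant, female livers had 3487, 4128 and 4012 CPM of miR-22-3p and male livers 4147, 3286 and 3134 CPM. The sexes overlapped: male replicate 1 was the highest of all 6 libraries, while the other male libraries lay below every female one. Females averaged 3876 ± 341 CPM and males 3522 ± 546 CPM (SD, n = 3 each). The log2 fold change, female over male, was 0.14 (SE 0.13; 95% interval -0.14 to 0.41; Benjamini-Hochberg adjusted p = 0.657 over 370 tested miRNAs, quasi-likelihood test of edgeR). In fold terms the estimate was 1.10 with an interval from 0.909 to 1.33. That interval holds for TMM scaling and all 6 libraries, and other settings moved the estimate, as given below.

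MiR-22-5p showed the same picture. Female livers had 83.9, 92.7 and 93.5 CPM and male livers 92.9, 68.5 and 88.5 CPM. Male replicate 2 was the lowest library, and the other male values lay within the female range. Females averaged 90.1 ± 5.34 CPM and males 83.3 ± 13.0 CPM (SD, n = 3 each). Its log2 fold change was 0.11 (SE 0.18; 95% interval -0.29 to 0.50; adjusted p = 0.798, edgeR quasi-likelihood test), a fold of 1.08 with an interval from 0.820 to 1.42. Without male replicate 2 the log2 fold change of miR-22-5p was -0.0073, and that of miR-22-3p was 0.092.

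**Figure D1:**
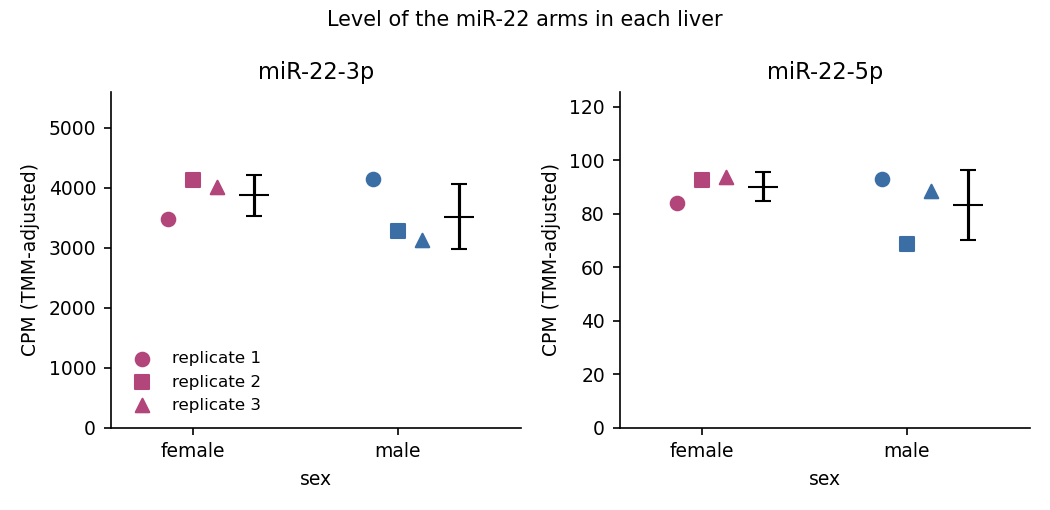
Level of miR-22-3p (left panel) and miR-22-5p (right panel) in each library, in TMM-adjusted CPM on linear axes from 0, with 3 female livers left of 3 male livers; symbols mark the replicate number, and the bar beside each group is the mean ± SD. For miR-22-3p male replicate 1 lies highest, at 4147 CPM, and for miR-22-5p male replicate 2 lies lowest, at 68.5 CPM.

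Of all 370 tested miRNAs, 25 passed the adjusted threshold of 0.05 in this comparison, a share of 6.76%; of the 2 miR-22 arms, 0 did. The 25 divided into 3.24% of the tested miRNAs that were higher and 3.51% that were lower in females. On all 6 libraries neither arm had an unadjusted p under 0.05 in edgeR, and 0 of the 2 passed in the DESeq2 Wald test or in limma-voom. Without male replicate 1, the male library highest in miR-22-3p, the log2 fold change of miR-22-3p was 0.25 (unadjusted p = 0.0468, adjusted p = 0.212, edgeR). Without male replicate 2 it was 0.09 (adjusted p = 0.741, edgeR). The sexes did not overlap for 21.6% of the tested miRNAs, whereas they overlapped for both arms. The smallest log2 fold change in size that passed was 0.60, beyond the interval of either arm. A smaller size than that of the miR-22-3p estimate was seen for 130 of the 370 tested miRNAs, and a smaller size than that of miR-22-5p for 94.

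The size of the small excess in females depended on the scaling. A change of scaling factors moves nearly all miRNAs by the same amount. The distance from their median therefore stays almost fixed and cannot test the excess. For miR-22-3p the log2 fold change was 0.27 with no TMM factor and 0.04 with upper-quartile factors, but the median of all tested miRNAs moved as well, to 0.13 and -0.10. Relative to that median, miR-22-3p lay at 0.15 with TMM, 0.14 with no TMM factor and 0.14 with upper-quartile factors. MiR-22-5p lay at 0.12, 0.11 and 0.11 relative to the median in the same fits. None of these fits called either arm.

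**Figure D2:**
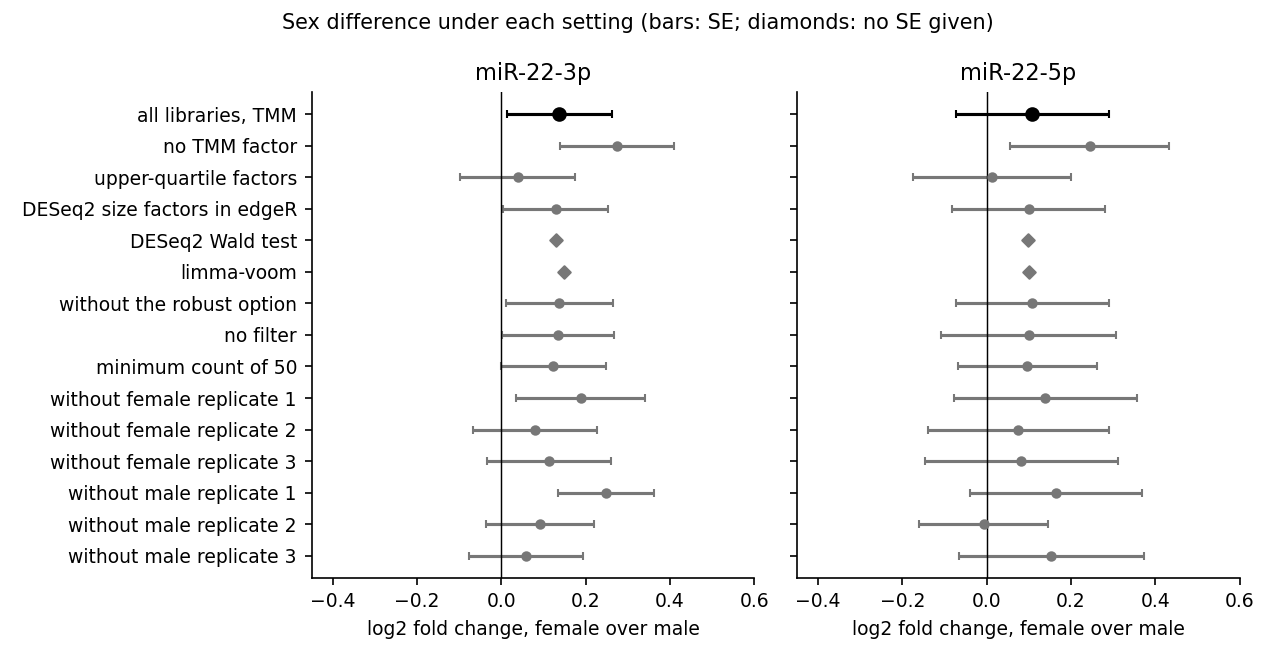
Log2 fold change, female over male, of miR-22-3p (left panel) and miR-22-5p (right panel) under every setting; bars are standard errors, diamonds have none, and the top row with black symbols uses all libraries and TMM. All values of miR-22-3p lie above 0, from 0.04 to 0.27, and those of miR-22-5p lie above 0 except the one without male replicate 2, at -0.0073.

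For miR-22-3p, libraries of one sex differed by more than Poisson counting error, which is too small if PCR copies were counted again. Each liver gave a single library, so differences between animals and between library preparations cannot be told apart. Its coefficient of variation was 8.80% in females and 15.5% in males, or 19.7% in males without male replicate 2, while the Poisson counting error was at most 0.848% in any library. For miR-22-5p the coefficient of variation in females, 5.93%, was close to the counting error of single female libraries, 4.44% to 5.52%; in males it was 15.6%, but 3.45% without male replicate 2, where the counting error of single male libraries was 2.68% to 5.87%. The within-sex SD of log2 CPM was 0.178 for miR-22-3p, and 29 of the 40 miRNAs nearest to it in level had a smaller one (median 0.13). For miR-22-5p it was 0.177, and only 10 of its 40 nearest miRNAs had a smaller one (median 0.269). Among miRNAs of like level, miR-22-3p was thus more variable than most and miR-22-5p less.

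Ratios to single abundant miRNAs need no scaling factor, and they placed miR-22-3p in the same range. Both arms together made up 0.376%, 0.435% and 0.438% of all counts in females and 0.417%, 0.308% and 0.309% in males. The difference of the means was 0.072 percentage points (exact two-sided permutation test, p = 0.2), and 3 animals against 3 cannot give a p below 0.1. Per read of miR-103-3p, a miRNA often used as a reference, there were 1.07, 1.11 and 1.22 reads of miR-22-3p in females and 1.16, 0.882 and 1.11 in males. Per read of miR-191-5p, another common reference, there were 0.962, 1.14 and 1.07 in females and 1.11, 0.773 and 0.844 in males. Male replicate 2 was the lowest library in both series.

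Over 6 such references the mean log2 ratio was higher in females by 0.06 against miR-16-5p, 0.12 against miR-103-3p, 0.23 against miR-191-5p, 0.23 against miR-26a-5p, 0.26 against let-7a-5p and 0.35 against miR-122-5p. The sexes overlapped for all 6, and the exact two-sided permutation test gave p from 0.2 to 0.8, or 0.45 to 0.8 after Benjamini-Hochberg adjustment over the 6. Without male replicate 2 the difference was -0.044 against miR-16-5p and -0.0051 against miR-103-3p. The ratio to miR-122-5p, the largest difference, includes the level of miR-122-5p itself, whose log2 fold change was -0.21 (adjusted p = 0.0531, edgeR).

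The guide strand outnumbered the passenger strand by a similar factor in both sexes. Reads of miR-22-3p per read of miR-22-5p numbered 41.6, 44.5 and 42.9 in females and 44.6, 48.0 and 35.4 in males. The 5p arm accordingly made up 2.35%, 2.20% and 2.28% of the reads of both arms in females and 2.19%, 2.04% and 2.75% in males. The mean log2 ratio of 3p to 5p was 5.42 ± 0.049 in females and 5.40 ± 0.228 in males (SD, n = 3 each), a difference of 0.021 (exact two-sided permutation test, p = 1). The female values fell inside the male range, and 2 male libraries lay at opposite ends of it.

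The binomial intervals of those 2 male libraries did not overlap, but such intervals are too narrow if PCR copies of a molecule were counted again. In male replicate 3, the most deeply sequenced library, the 95% exact binomial interval of the 5p share was 2.61% to 2.89%, while in male replicate 2 it was 1.82% to 2.29%. The interval of male replicate 3 also lay above those of all 3 female libraries, of which the highest ended at 2.56%. The female minus male difference of the log2 ratio was -0.11 without male replicate 3 and 0.11 without male replicate 2. The part of sequencing depth in this was not tested.

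**Figure D3:**
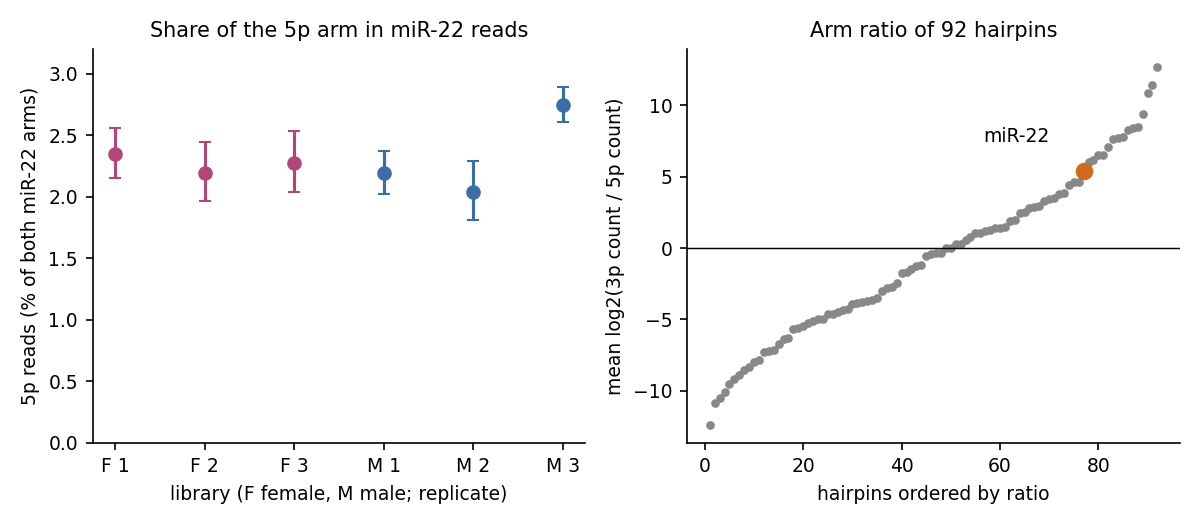
Left panel, share of the 5p arm among the reads of both miR-22 arms in percent, per library, with 95% exact binomial intervals (3 female libraries, then 3 male); right panel, mean log2 ratio of 3p to 5p counts over the 6 libraries for 92 hairpins in rising order, with miR-22 in orange. Male replicate 3 has the highest 5p share, at 2.75%, and miR-22 stands at 5.41 among the hairpins that favour the 3p arm.

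Arms were paired where both were tested under the same hairpin name. Hairpins whose arms differ in name by a locus number, such as those of miR-29b-2-5p and let-7a-1-3p, were thereby left out. Of the 92 hairpins paired in this way, 43 had more 3p and 49 more 5p reads, and places are given among these 92. MiR-22, at a mean log2 ratio of 5.41 or a 42.6-fold excess of 3p, was followed by 15 hairpins that favoured the 3p arm more strongly. Its nearest neighbours in this order were miR-187, at 4.65, and miR-223, at 6.05. The median excess of the main arm over the 92 hairpins was 20.7-fold. On all libraries the difference between the sexes was larger in size for 85 of the 92 hairpins (median 0.178) than for miR-22, at 0.021. That place depends on single male libraries, since the miR-22 difference was -0.11 without male replicate 3 and 0.11 without male replicate 2. The sexes overlapped for miR-22, as for most hairpins, and did not overlap for 9.78% of the 92. Only 13 hairpins had a smaller within-sex SD of the log2 ratio than miR-22 had, 0.165 against a median of 0.297. Low counts of the lesser arm can widen this SD, and the hairpins were not matched for level.

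The miRNAs encoded nearest to miR-22 did not pass the test either. Within 1 Mb the table placed miR-132 and miR-212, a pair of hairpins induced by neuronal and inflammatory signals, 290 kb upstream on the same strand, and miR-3971 and miR-6926. Of these, miR-132-3p averaged 27.3 ± 2.75 CPM in female livers and 30.3 ± 6.08 CPM in male livers (SD, n = 3 each; log2 fold change -0.14, adjusted p = 0.796, edgeR). The log2 fold changes of miR-132-5p and miR-212-5p were -0.05 and -0.68 (adjusted p = 0.963 and 0.466, edgeR). MiR-212-3p had too few counts for the test, 3, 5 and 3 in females and 7, 2 and 17 in males. MiR-3971, with at most 3 counts in a library, and miR-6926-3p, with at most 2, were also too low, and miR-6926-5p had no count.

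The miRNAs whose pattern over the 6 libraries was most like that of miR-22-3p included both arms of miR-142a, a miRNA of blood-forming cells and leukocytes. Among 242 other miRNAs with a mean of at least 10 CPM, Pearson's r of log2 CPM with miR-22-3p was highest for miR-33-5p (0.922), which lies in the gene of the cholesterol regulator SREBP2, then for miR-142a-5p (0.917), miR-142a-3p (0.915), miR-186-5p (0.911) and miR-101b-3p (0.897). These are descriptions over 6 libraries that share the same scaling, and each was picked as the highest of many. The common feature was a high value in male replicate 1 and low values in male replicates 2 and 3: miR-142a-3p had 2880, 3241 and 3095 CPM in female livers and 3252, 2168 and 2382 CPM in male livers. For miR-33-5p the values were 47.1, 76.7 and 57.9 CPM in female livers and 60.0, 33.8 and 38.4 CPM in male livers.

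The other arm of the same hairpin was less alike than these. MiR-22-5p had an r of 0.643 with miR-22-3p and came 42nd of the 242. The miRNAs most like miR-22-5p were miR-130a-3p (0.978), miR-322-5p (0.961) and miR-362-3p (0.961), which shared its low value in male replicate 2. Without that library the r of these 3 was 0.811, 0.932 and 0.819, while the r of the 5 miRNAs most like miR-22-3p lay between 0.92 and 0.97. MiR-130a-3p, known for acting on lipid genes, had 759, 851 and 797 CPM in female livers and 841, 535 and 795 CPM in male livers. The arms thus differed mainly in male replicate 3, which was the lowest library for miR-22-3p and ordinary for miR-22-5p.

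**Figure D4:**
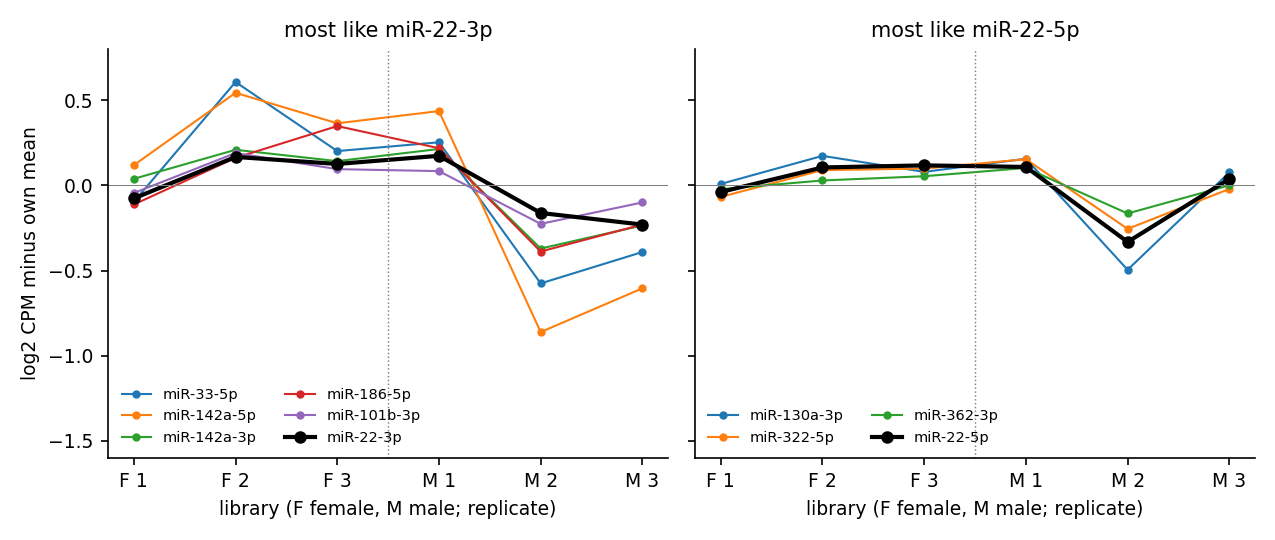
Log2 CPM minus the miRNA's own mean over the 6 libraries, for miR-22-3p and its 5 most similar miRNAs (left panel) and for miR-22-5p and its 3 most similar miRNAs (right panel); the dotted line separates 3 female from 3 male libraries, and lines only join the points of a miRNA. The miRNAs on the left are low in male replicates 2 and 3, and those on the right are low in male replicate 2.

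Since miR-142a marks leukocytes, the whole list of 5 leukocyte miRNAs is given beside it, and its members did not all share the pattern. Over the 6 libraries r with miR-22-3p was 0.67 for the lymphocyte miRNA miR-150-5p, 0.66 for the myeloid miR-223-3p and -0.14 for miR-155-5p, which is induced in activated leukocytes. The summed level ran from 4039 to 4593 CPM in females and from 2899 to 4453 CPM in males, but 86.0% of it came from the miR-142a arms, which were already picked for their likeness, so the sum adds nothing to them. Each of the 5 was detected, all lay above 0 in log2 fold change, at a median of 0.35, against -0.0096 over all tested miRNAs, and 1 of the 5 was called higher in females, miR-223-3p, where 3.24% of all tested miRNAs were; that call was lost in 6 of 14 alternative fits. In bulk liver, fewer cells of a type and less RNA per cell cannot be told apart. The part of leukocytes in the level of miR-22-3p was not tested.

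The labelled tissue was checked against markers of liver cell types. The 5 hepatocyte miRNAs include miR-122-5p and miR-192-5p. Their sum lay between 395347 and 398456 CPM in females and between 421084 and 466099 CPM in males. Most of it came from miR-122-5p, at a mean of 339960 CPM and a log2 fold change of -0.21. Of the 5, 3 had a log2 fold change above 0, and the list median was 0.017, against -0.0096 over all tested miRNAs. In the main fit 0 of 5 were called, where 6.76% of all tested miRNAs were. In 4 of 14 alternative fits 1 of the 5, miR-122-5p, was called lower in females. The 5 stromal miRNAs, led by miR-143-3p and miR-199a-3p, summed to 8918 to 11440 CPM in females and 12112 to 12799 CPM in males. These ranges hold for TMM scaling. Of the 5, 0 had a log2 fold change above 0 (median -0.21), and 0 were called in the main fit, where 6.76% of all tested miRNAs were. With upper-quartile factors 1 of the 5 was called lower in females, and likewise 1 without male replicate 2. Endothelial miR-126a-3p and miR-126a-5p summed to 67777 to 71815 CPM in females and 68763 to 76034 CPM in males. The 5 erythroid miRNAs, led by miR-486a-5p and miR-144-5p, summed to 230 to 391 CPM in females and 242 to 289 CPM in males, and the 5 biliary and epithelial ones, led by miR-31-5p and miR-200a-3p, to 1505 to 1697 CPM in females and 1616 to 1902 CPM in males. The muscle miRNAs miR-1a-3p and miR-206-3p summed to at most 33.5 CPM.

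Like miR-22-3p, other miRNAs known to act on estrogen receptor alpha did not pass the test. Of 13 listed besides miR-22-3p, 10 were tested, and 0 were called higher and 0 lower in females, where 6.76% of all tested miRNAs were called, so 0 of 10 is near the background. On all libraries 0 of the 10 had an unadjusted p under 0.05 in edgeR with TMM and 1 with upper-quartile factors, and DESeq2 and limma-voom also called 0. Their log2 fold changes had a median of -0.0021, against -0.0096 over all tested miRNAs, and 5 of the 10 were positive. The most abundant were miR-26a-5p, at 32854 ± 113 CPM in female livers and 34985 ± 1648 CPM in male livers, miR-26b-5p, at 3578 ± 81.4 and 3661 ± 317 CPM, and miR-19b-3p, at 1320 ± 254 and 1393 ± 482 CPM in females and males (SD, n = 3 each). MiR-22-3p and miR-26b-5p thus stood at about the same level, and miR-221-3p, another of the list, at 657 ± 10.4 CPM in female livers and 644 ± 39.0 CPM in male livers. Without male replicate 2, miR-145a-5p was called lower in females (log2 fold change -0.46, adjusted p = 0.0474, edgeR).

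Of 19 miRNAs known to act on lipid and glucose regulators, 2 were higher and 1 lower in females, where 3.24% of all tested miRNAs were higher and 3.51% lower. The median log2 fold change was -0.0033, against -0.0096 over all tested miRNAs. They were the p53-induced miR-34a-5p, at 332 ± 18.1 CPM in female livers and 96.8 ± 25.5 CPM in male livers, the myeloid miR-223-3p, at 322 ± 56.6 and 209 ± 13.7 CPM in females and males, and the injury-linked miR-21a-5p, at 63250.5 ± 6565 CPM in female livers and 95757 ± 8584 CPM in male livers (SD, n = 3 each). The mean of miR-22-3p was 11.7 times that of miR-34a-5p in females and 36.4 times in males, and the mean of miR-21a-5p was 16.3 times that of miR-22-3p in females and 27.2 times in males. The call of miR-223-3p was lost with upper-quartile factors (adjusted p = 0.107, edgeR), a minimum count of 50 (0.0519), in limma-voom (0.0556), and without female replicate 2 (0.14), female replicate 3 (0.273) or male replicate 3 (0.133). Its log2 fold change in these fits stayed between 0.48 and 0.62. The most abundant others were miR-122-5p, miR-29a-3p and miR-148a-3p, with log2 fold changes of -0.21, 0.01 and -0.18, which did not pass. MiR-122-5p passed as lower in females with upper-quartile factors (adjusted p = 0.00763, edgeR), with DESeq2 size factors in edgeR (0.0444), without the robust option (0.0458) and without male replicate 1 (0.0128). It did not pass in the other fits. With no TMM factor its log2 fold change was -0.063 (adjusted p = 0.453, edgeR). The adjusted p was 0.383 with no filter (edgeR) and 0.46 in the DESeq2 Wald test.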

How the data were processed

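The deposited values are estimated counts per mature miRNA, which the authors did not normalise. Per the submitters' processing notes, Partek, Bowtie and mm10 were used; no version, trimming rule, treatment of multiply matching reads or use of molecular identifiers is stated there. The table had 2045 rows, of which 138 repeated another exactly and were dropped; its stop column is the base after the end. All 12 miR-22 values were whole; others were rounded. Total counts ran from 3285249 to 16444674. No pair of libraries was a duplicate (chi-square per degree of freedom at least 25.3).

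Libraries were grouped by labelled sex; replicates were numbered in accession order and pair no animals. Titles number the males before the females, so sex and any effect of order cannot be told apart. Female and male libraries were compared with edgeR 4.0.16 in R 4.3.3 (TMM, filterByExpr with a minimum count of 10, robust quasi-likelihood fit, adjusted p threshold 0.05), tested on simulated data. Standard errors were derived from the F statistic. Alternatives were other scalings and filters, DESeq2 1.42.0, limma-voom (limma 3.58.1), and leaving out each library. Arm and reference ratios used counts plus 0.5 and exact permutation tests. Log2 CPM used a prior count of 2. Sequences are from RefSeq (GRCm38.p6) and, for target sites, GENCODE M21; the hairpin was folded with ViennaRNA 2.7.2.

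The miR-22 arms and the lists were chosen with earlier results of these data known, and target genes were listed from the literature. Named miRNAs were those with the highest r to an arm, its neighbours in level and position, reference miRNAs, and called or most abundant list members; miR-145a-5p and miR-221-3p were named after their values were seen. Coefficients of variation and r without male replicate 2 were added after seeing the data.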

Additional observations from a re-analysis of the deposited data

How the results depend on the processing

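In all 14 alternative fits miR-22-3p kept a positive log2 fold change without passing the threshold, from 0.04 to 0.27 on all libraries and from 0.06 to 0.25 when a library was left out (adjusted p from 0.212 to 0.894). MiR-22-5p did not pass either (adjusted p from 0.493 to 0.992); it ranged from 0.01 to 0.24 on all libraries and from -0.0073 to 0.16 with a library left out. The count of miRNAs past the threshold, 25, was 13 with a minimum count of 50, where fewer miRNAs were tested, and 9 to 32 with a library left out: leaving out female replicate 2 gave 9, female replicate 3 gave 10 and male replicate 3 gave 12. It was 31 in DESeq2 and 17 in limma-voom. With a library left out, the sex difference of the arm ratio ranged from -0.11 to 0.11, that of miR-22-3p to miR-16-5p from -0.044 to 0.23, and that to miR-103-3p from -0.0051 to 0.19; the cause was not tested. A pseudocount of 5 and, for the share, a total without miR-122-5p turned no direction. The depth limits miR-22-5p more than miR-22-3p, since its counting error reached 5.87%. No paired analysis was possible because the labels give no replicate numbers that link females to males.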
